A study of Mus musculus with 16 samples.

Results

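The nuclear-encoded subunits of the mitochondrial respiratory chain were examined in gonadal white adipose tissue (gWAT) of mice fed chow or a high fat diet (HFD). Members were the genes whose symbols carry the family prefixes of complex I (Ndufa, Ndufb, Ndufc, Ndufs and Ndufv), complex II (*Sdha* to *Sdhd*), complex III (Uqcr), complex IV (Cox4 to Cox8) and complex V (Atp5). This naming rule used no expression value and matched 82 of the 19373 genes in the table. Of these, 77 encode subunits, with 35 in complex I, 4 in complex II, 8 in complex III, 16 in complex IV and 14 in complex V. *Ndufa4* and *Ndufa4l2* were counted with complex IV, where the NDUFA4 protein is now placed. The other 5 matched by name only: the pseudogenes *Uqcrh-ps1* and *Atp5k-ps2*, the former symbols *Atp5s* and *Atp5sl*, and *Cox7a2l*, a supercomplex factor.

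RNA came from 16 male mice on a C57Bl6/J background, with 4 in each of 4 groups. Control mice (Flox) carried 2 floxed *Mboat7* alleles and no Cre, and ASKO mice carried the same floxed alleles with a Cre recombinase driven by the adiponectin promoter. That promoter is active in adipocytes, so the other cells of gWAT, such as macrophages, endothelial cells and progenitors, keep the gene. MBOAT7 transfers arachidonoyl chains to lysophosphatidylinositol. Each genotype was fed chow or HFD for 20 weeks, and every library was 1 mouse. Values were deposited as FPKM (fragments scaled to transcript length and library size), and fold changes below are differences of log2(FPKM + 1).

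The respiratory chain passes electrons from NADH through complex I, or from succinate through complex II, to ubiquinone, then to complex III, cytochrome c and complex IV, where oxygen is reduced. Protons pumped by complexes I, III and IV drive complex V, the ATP synthase. A small set of core subunits is encoded in mitochondrial DNA, and the remaining subunits are nuclear, most of them among the genes examined here. In white adipocytes the chain supports lipogenesis, fatty acid oxidation and adipokine synthesis, and the factors NRF1, GABP, YY1 and the estrogen-related receptors are known regulators of many of its genes.

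Promoter sequence was available for 63 of the 82 members, in RefSeq windows from 250 bases before to 50 bases after the start (GRCm38.p6). Exact matches on either strand were sought for 4 motif cores. The NRF1 core GCGCATGC was in 9 windows (14.3%, against 3.05% of 27025 genes with a window and 5.82% of the 8742 with a window that were tested for expression). The ETS core CCGGAAG, bound by GABP, was in 16 (25.4%, against 9.93% and 19.6%). For the YY1 core AAGATGGC the count was also 9 (14.3%, against 3.19% and 5.28%), and the ERR site TCAAGGTCA was in 2 (3.17%, against 0.466% and 0.332%). None of the 4 was in 34 windows, and 5 windows held both the NRF1 and the ETS core. Stretches of 100 bases that lie before the start and outside annotated exons are shown for 4 members that carry a core and for 2 that were lower on HFD. Capitals mark the core. The sequences read 5′ to 3′ on the gene's strand. *Ndufa6* (complex I, NRF1 core, chr15:82354323-82354422, minus strand), *Uqcr11* and *Uqcrh* (complex III, ETS core, chr10:80406831-80406930 and chr4:116075072-116075171, minus strand) and *Atp5g3* (complex V, ERR site, chr2:73911327-73911426, minus strand) come first. *Ndufb8* (chr19:44555443-44555542) and *Ndufv2* (chr17:66101560-66101659), both complex I and on the minus strand, hold no core in the stretch shown. The window of *Ndufb8* holds the YY1 core outside that stretch and is counted above, and that of *Ndufv2* holds none of the 4.
Ndufa6: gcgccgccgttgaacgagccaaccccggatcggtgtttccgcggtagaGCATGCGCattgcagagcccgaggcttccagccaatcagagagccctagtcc
Uqcr11: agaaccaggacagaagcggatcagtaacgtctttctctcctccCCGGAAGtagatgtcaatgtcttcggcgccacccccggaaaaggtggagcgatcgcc
Uqcrh: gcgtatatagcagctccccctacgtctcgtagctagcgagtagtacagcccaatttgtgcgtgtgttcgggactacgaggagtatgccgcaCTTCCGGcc
Atp5g3: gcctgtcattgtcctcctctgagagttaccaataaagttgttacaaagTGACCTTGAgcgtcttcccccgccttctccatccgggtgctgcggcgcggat
Ndufb8: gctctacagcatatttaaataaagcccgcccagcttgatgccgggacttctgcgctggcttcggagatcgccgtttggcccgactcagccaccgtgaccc
Ndufv2: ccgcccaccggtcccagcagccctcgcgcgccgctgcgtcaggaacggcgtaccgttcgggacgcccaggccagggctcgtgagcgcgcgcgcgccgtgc
A match is a string in a window and was not tested as a binding site. The 28 tested members with a core in the window had a median log2 fold change of -0.27 for HFD over chow across both genotypes, and the 32 tested members with a window and no core had -0.57.

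The libraries appeared shallow. Steps between the low values of single-transcript genes put 1 fragment on a transcript of 1 kb at between 2.44 and 4.404 FPKM. On the scale of the table this is 227000 to 410000 fragments per mouse. The steps were clearer in some mice than in others, with mean cosine scores from 0.16 to 0.68, where 1 is exact. Such depth would bear on short transcripts most. The longest annotated transcript of the tested members had a median of 1026 bases against 2956 over all tested genes. A value of 0 in such a table may be a failed estimate, since ribosomal protein genes such as *Rpl11* and *Rps12* were listed at 0 in every mouse of a diet, so 0 is given below as listed at 0. In each mouse a single gene held from 9.61% to 32.6% of all FPKM. The deleted gene was low everywhere. *Mboat7* was at 0.902, 2.42, 4.33 and 4.99 FPKM in control and 0, 0, 1.39 and 2.89 FPKM in ASKO mice on chow, and at 0, 0, 1.61 and 2.15 FPKM in control and 0, 0, 1.14 and 2.60 FPKM in ASKO mice on HFD. The genotypes overlapped on both diets, with ASKO minus control differences on the log2 scale of -1.12 on chow and -0.02 on HFD. A two-sided exact permutation test gave p = 0.143 on chow and p = 1 on HFD, where the smallest possible p is 0.0286. Transcript values therefore do not separate the genotypes. The paper reported reduced MBOAT7 protein in gWAT of chow-fed ASKO mice, a measure not examined here. The tissue carried its defining markers, with *Adipoq* between 318 and 1871 FPKM. Of 14 adipocyte markers 9 were lower on HFD over both genotypes (background 3.04%) and 1, the leptin gene *Lep*, was higher (log2 fold change 1.78, adjusted p = 9.28e-05), and of 20 macrophage markers 17 were higher (background 4.49%). Among other cell markers, 2 of 10 for progenitors and fibroblasts were higher, 1 of 6 mesothelial markers was lower, and none of 8 endothelial and 4 lymphocyte markers passed. Epididymis and testis, which lie against gWAT, had 1 of 12 markers listed, below the limit for testing.

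The members were among the better expressed genes of the tissue. The 76 tested members, which reached 1 FPKM in 4 or more mice, had a median of 30.4 FPKM over all mice, against 4.28 FPKM for the 13148 tested genes. By complex, medians ran from 24.9 FPKM in complex I, over 30.1 in complex II, 47.4 in complex IV and 56.7 in complex III, to 70.8 FPKM in complex V. The highest members were *Atp5b*, the catalytic beta subunit of ATP synthase (282 FPKM), *Uqcr10* of complex III (258 FPKM), *Cox6b1* of complex IV (253 FPKM), *Ndufa5* of complex I (118 FPKM) and *Sdha*, the flavoprotein of complex II (101 FPKM). FPKM is scaled to transcript length. The order of genes and complexes is still rough, since values listed at 0 may be failed estimates and fragments could be assigned elsewhere. A value above 0 was listed in every mouse for 41 members, and the other 41 were listed at 0 in at least 1 mouse. Not tested were *Cox7a1*, *Cox4i2*, *Ndufa4l2*, *Atp5g1*, *Atp5l* and *Atp5k-ps2*, each above 1 FPKM in fewer than 4 mice. Exons of 28 members overlap those of another annotated gene, and 41 members share a stretch of at least 200 bases at 90% identity or more with another annotated gene, often a processed pseudogene, so part of their fragments could be assigned elsewhere.

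HFD-fed mice had lower levels of most members, but the mice of the diets overlapped and few single genes passed the test. Over both genotypes, 63 of 76 tested members were below 0 on HFD (82.9%, against 49.5% of all tested genes), with a median log2 fold change of -0.50 against 0.01 for all tested genes. Calls required an adjusted p-value under 0.05 with a change of over 0.5 on the log2 scale in either direction. By this rule 5 members were lower (6.58%, against a background of 3.04% of all tested genes) and 1, *Cox6a2*, was called in the higher direction (background 4.49%). An unadjusted p-value under 0.05 was reached by 15 members in the lower direction (19.7%, background 8.91%). The count of 5 fell to 1 when 1 chow mouse, control or ASKO replicate 1, was left out, and it was 7 without the ASKO mouse on chow whose members were lowest. The members vary together from mouse to mouse and are not 76 independent observations.

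In control mice alone, 61 members were below 0 on HFD with a median of -0.59 (all tested genes, 0.00), and in ASKO mice 56 were, with a median of -0.34 (all tested genes, 0.03). In neither genotype did a member pass the test in the lower direction (background 1.1% in control and 1.3% in ASKO mice), and 1 member, *Cox6a2*, which is listed at 0 in every chow mouse, was called in the higher direction in both (background 1.81% and 2.13%). Unadjusted p-values under 0.05 in the lower direction were reached by 11 members in control mice (background 6.49%) and 11 in ASKO mice (background 6.78%). The 4 HFD values lay below all 4 chow values for 6 members in control mice (*Cox6c*, *Ndufb8*, *Ndufb9*, *Ndufv1*, *Sdha* and *Uqcrc2*, where 3.89% of all tested genes did so) and for 4 in ASKO mice (*Cox5b*, *Ndufa10*, *Ndufb8* and *Ndufv2*, background 4.42%). *Ndufb8* was on both lists. Median shifts by complex over both genotypes were -0.64 for complex I, -0.61 for complex II, -0.55 for complex III, -0.43 for complex IV and -0.35 for complex V. The genotypes differed in these medians. In control mice they were -0.87, -1.04, -0.54, -0.09 and -0.54 for complexes I to V. In ASKO mice they were -0.65, -0.22, -0.43, -0.52 and -0.11.

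**Figure D1:**
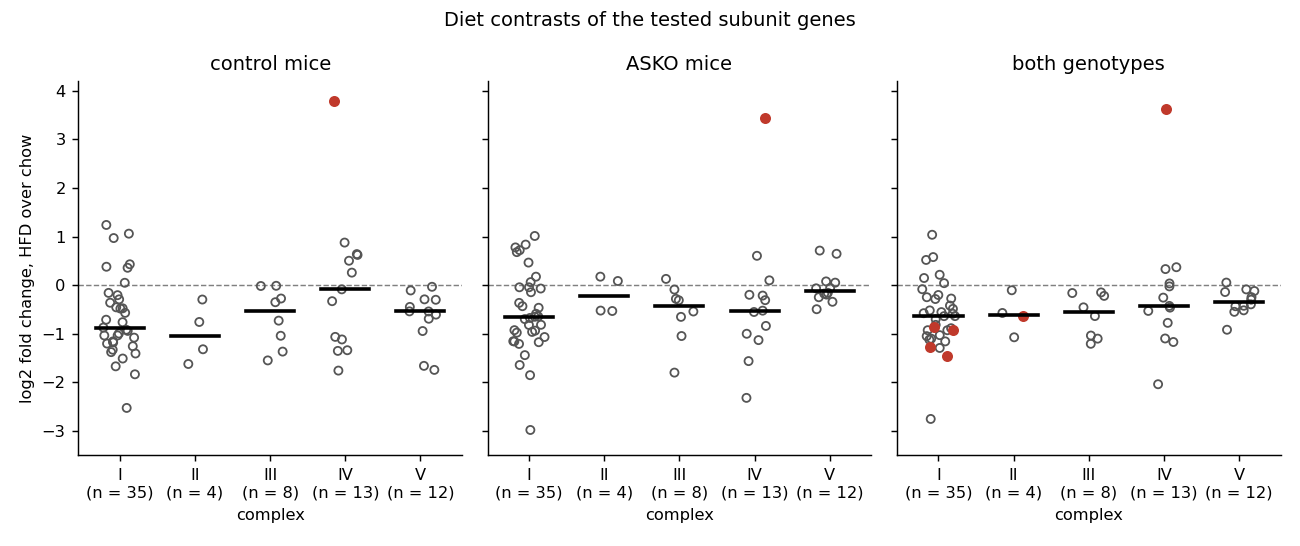
Log2 fold change of HFD over chow (vertical axis) of the 72 tested subunit genes by complex in control mice, ASKO mice and both genotypes together; each point is 1 gene, filled red where it passed the test, and bars are medians. Over both genotypes most points of each complex lie below 0, while 2 of 4 complex II genes in ASKO mice and 6 of 13 complex IV genes in control mice lie above it. The filled point above 0 in each panel is *Cox6a2*.

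The mean log2(FPKM + 1) over the 76 members shows how wide the mice spread. On chow it was 4.18, 4.73, 4.97 and 4.98 in control mice and 3.997, 4.86, 5.36 and 5.38 in ASKO mice. On HFD it was 3.64, 4.09, 4.10 and 4.75 in control mice and 4.27, 4.33, 4.72 and 4.74 in ASKO mice. Chow and HFD therefore overlapped in both genotypes, through 1 low chow mouse in ASKO mice and 1 high HFD mouse in control mice. The low ASKO mouse had the lowest summed adipocyte markers on chow (8689 FPKM, where the highest was 25297 FPKM), and the high control mouse had the highest sum on HFD (11528 FPKM, where the lowest was 4891 FPKM). The lowest control mouse on chow also had the lowest sum of its group (10033 FPKM). The low ASKO mouse on chow also had the coarsest estimated step of all libraries, 4.404 FPKM on 1 kb, and the high control mouse on HFD the finest, 2.44 FPKM. Without the low ASKO mouse on chow, the ASKO diet median was -0.60 in place of -0.34, and it was -0.52 without ASKO replicate 1 and -0.22 without ASKO replicate 2 on HFD. Whether marker content or depth had a part in the members' levels was not tested, and in bulk tissue fewer adipocytes and less RNA per adipocyte cannot be told apart.

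**Figure D2:**
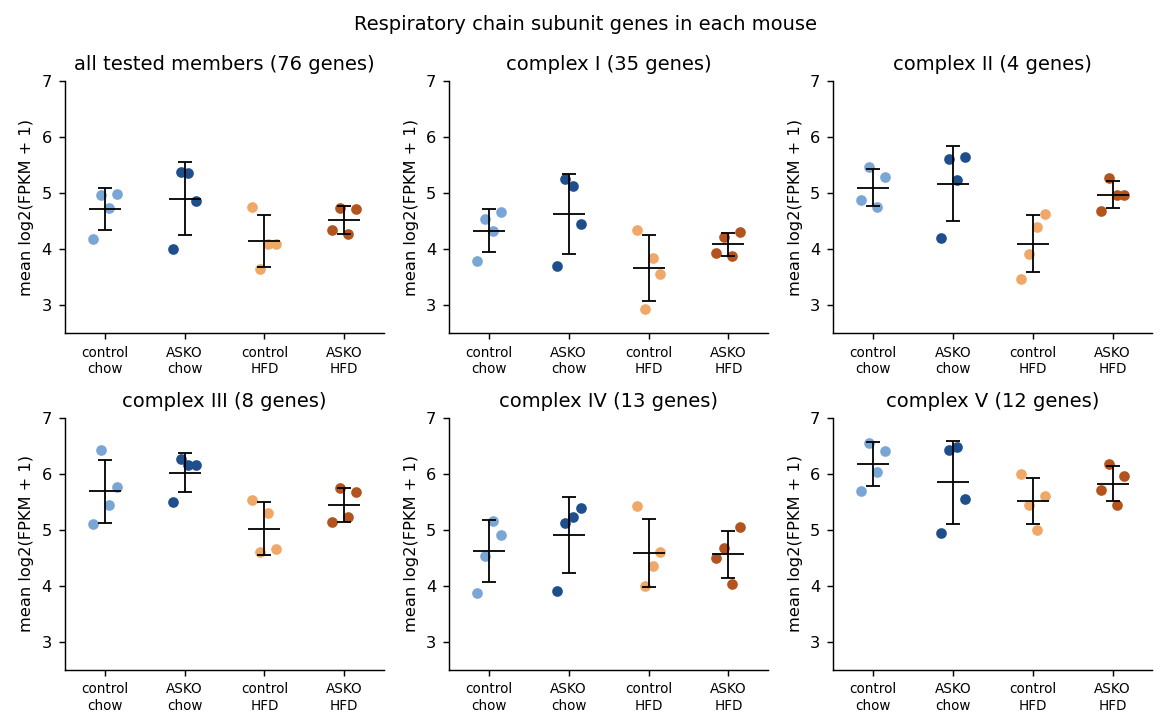
Mean log2(FPKM + 1) of the tested members (vertical axis), for all 76 and for each complex, in the 4 groups; points are mice, and lines with bars are the group mean and SD (n = 4). The 2 diets overlap in the panel of all members, with control means of 4.71 on chow and 4.14 on HFD and ASKO means of 4.90 and 4.52.

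Complex I, which oxidizes NADH, held 4 of the 5 lower members and 35 of the 76 tested members. *Ndufb8*, an accessory subunit of the membrane arm (chr19:44548572-44555440, minus strand, GRCm38), was at 67.3, 74.1, 74.4 and 102 FPKM in control mice on chow and at 28.2, 41.4, 49.4 and 55.7 FPKM on HFD. ASKO mice had 83.9, 101, 107 and 121 FPKM on chow and 38.3, 40.8, 58.7 and 80.02 FPKM on HFD. The diets did not overlap within either genotype. Means ± SD (n = 4) were 79.4 ± 15.2 FPKM on chow and 43.7 ± 11.9 FPKM on HFD in control mice, and 103 ± 15.4 and 54.5 ± 19.3 FPKM in ASKO mice. *Ndufb8* fell by 0.92 ± 0.21 on the log2 scale over both genotypes (SE, adjusted p = 0.0099, limma), and it was the only lower member that passed under every alternative tried. It shares annotated exons with the overlapping gene *Gm20538* on the same strand, so fragments of both could be counted here.

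*Ndufv1* and *Ndufv2* form the NADH-oxidizing tip of the enzyme, with the flavin in NDUFV1. *Ndufv1* (chr19:4007384-4012806) was at 19.3, 20.1, 22.2 and 23.4 FPKM in control mice on chow and at 11.4, 12.1, 14.2 and 19.2 FPKM on HFD, against 27.4, 30.9, 54.3 and 59.1 FPKM and 12.6, 16.5, 16.5 and 28.6 FPKM in ASKO mice. Control groups touched without overlapping, ASKO groups overlapped, and the fall over both was 0.86 ± 0.24 on the log2 scale (adjusted p = 0.0328). *Ndufv2* (chr17:66078638-66101559) was at 10.6, 27.1, 33.6 and 34.6 FPKM on chow and 4.05, 9.68, 16.5 and 20.2 FPKM on HFD in control mice, and at 23.5, 37.5, 42.1 and 54.7 FPKM and 2.44, 9.54, 16 and 20.6 FPKM in ASKO mice. Here the ASKO groups were apart and the control groups overlapped. *Ndufv2* fell by 1.47 ± 0.41 (adjusted p = 0.0358).

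*Ndufa10*, another accessory subunit of the membrane arm (chr1:92439010-92473860), had 11.7, 16.8, 20.4 and 28.9 FPKM on chow and 1.88, 3.86, 12.1 and 16.2 FPKM on HFD in control mice. In ASKO mice it had 19.6, 28.1, 29.4 and 40.2 FPKM on chow and 7.15, 11.0, 14.9 and 17.6 FPKM on HFD. It fell by 1.28 ± 0.36 (adjusted p = 0.0375), with the ASKO diets apart and the control diets overlapping through 1 low chow mouse. Of the other complex I members, *Ndufs6*, a zinc-binding subunit near the same tip, had the largest decrease (log2 fold change -2.75, adjusted p = 0.0668), and it was listed at 0 in 4 of 8 HFD mice. *Ndufb2* (-1.29, adjusted p = 0.138), *Ndufb9* (-1.03, adjusted p = 0.147) and *Ndufa12* (-1.10, adjusted p = 0.173), all accessory subunits, reached an unadjusted p under 0.05 only. The 7 tested core subunits had a median of -0.70 and the 28 accessory ones -0.61. Core members were not all lower, since *Ndufs8* had a log2 fold change of 1.04 (adjusted p = 0.446). The most abundant member, *Ndufa5*, ranged from 42.0 to 288 FPKM on chow and from 57.2 to 152 FPKM on HFD, a log2 fold change of -0.49 ± 0.37 that did not pass.

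**Figure D3:**
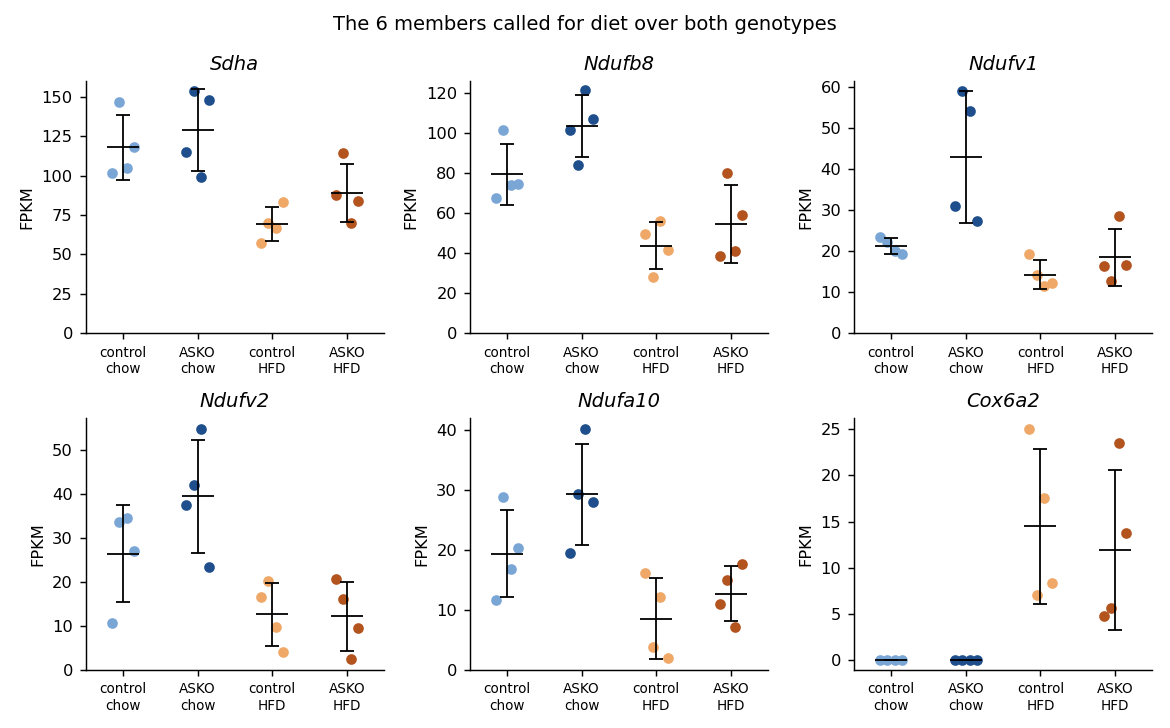
FPKM (vertical axis, linear) of the 6 members that passed the test of diet over both genotypes, in each of 4 groups; points are mice, and lines with bars are the group mean and SD (n = 4). *Sdha*, *Ndufb8*, *Ndufv1*, *Ndufv2* and *Ndufa10* are lower on HFD with partial overlap, while *Cox6a2* is listed at 0 in all 8 chow mice and between 4.78 and 25.0 FPKM on HFD.

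Complex II oxidizes succinate and is the only complex of the chain whose subunits are all nuclear. *Sdha*, its catalytic flavoprotein (chr13:74322254-74350280, minus strand), was at 102, 105, 119 and 147 FPKM in control mice on chow and at 57.2, 66.9, 69.8 and 83.4 FPKM on HFD, with no overlap. In ASKO mice it was at 99.5, 115, 148 and 154 FPKM on chow and 69.9, 84.1, 87.9 and 114 FPKM on HFD, where 1 pair of values crossed. Means ± SD (n = 4) were 118 ± 20.7 and 69.3 ± 10.8 FPKM in control mice, and 129 ± 26.2 and 89.0 ± 18.5 FPKM in ASKO mice. The fall over both genotypes was 0.64 ± 0.17 on the log2 scale (adjusted p = 0.0280). *Sdhb*, the iron-sulfur subunit, had a log2 fold change of -1.07 ± 0.62 (adjusted p = 0.381) and was listed at 0 in 2 HFD mice. The membrane anchors *Sdhc* (-0.57, adjusted p = 0.503) and *Sdhd* (-0.10, adjusted p = 0.915) did not pass. All 4 complex II genes were below 0 in control mice, and 2 of 4 in ASKO mice.

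Complex III passes electrons from ubiquinol to cytochrome c. All 8 members were below 0 over both genotypes, between -1.21 and -0.15, and none passed the test. *Cyc1*, a nuclear-encoded subunit of this complex that the naming rule leaves out, had 0.01 ± 0.44. *Uqcrfs1*, the Rieske iron-sulfur protein, had the lowest p (log2 fold change -1.10 ± 0.43, adjusted p = 0.151). *Uqcrh*, the hinge protein at the cytochrome c1 site, ranged from 104 to 377 FPKM on chow and from 76.7 to 177 FPKM on HFD (-0.64 ± 0.26, adjusted p = 0.172). *Uqcrq* had -1.21 ± 0.54 (adjusted p = 0.224), and 1 control mouse on chow was at 94.3 FPKM where the other 3 were between 4.17 and 8.75 FPKM. The most abundant member, *Uqcr10*, did not separate the diets (-0.15 ± 0.31, adjusted p = 0.869).

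Complex IV reduces oxygen, and its nuclear subunits surround a mitochondrially encoded core. Of 13 tested members 9 were below 0 over both genotypes. In control mice alone 7 were below 0, with a median of only -0.09, and in ASKO mice 10 were, with a median of -0.52. Over both genotypes the 2 lowest p-values after *Cox6a2* belonged to *Cox6c* (log2 fold change -2.04 ± 0.66, adjusted p = 0.0751) and *Ndufa4* (-1.10 ± 0.36, adjusted p = 0.0768). *Cox6c* was at 43.4, 45.4, 59.6 and 71.7 FPKM on chow and 10.4, 11.0, 12.7 and 35.9 FPKM on HFD in control mice, without overlap. In ASKO mice it was at 65.9, 91.8, 94.1 and 103 FPKM on chow, and at 0, 26.7, 33.2 and 104 FPKM on HFD, where 1 mouse was as high as any on chow. *Cox6c* overlaps exons of *Vps13b* on the other strand and has 3 near-identical copies in the annotation. *Cox6b1*, the most abundant member, differed by -0.03 ± 0.28 (adjusted p = 0.981).

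*Cox6a2* had the opposite pattern. This isoform of subunit VIa is known from heart and skeletal muscle. It was listed at 0 in all 8 chow mice and was present in all 8 HFD mice, at 7.10, 8.33, 17.6 and 25.0 FPKM in control and 4.78, 5.71, 13.7 and 23.5 FPKM in ASKO mice. The groups did not overlap in either genotype (background of higher genes without overlap 4.45% in control and 5.18% in ASKO mice). *Cox6a2* entered the test only through the HFD mice, in which it is high, and a 0 may be a failed estimate, so its values are a description and its call is not read as support for a rise. No fold is given against groups listed at 0. The highest value is worth about 6.96 fragments.

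The position of *Cox6a2* (chr7:128205435-128206387, minus strand) bears on this value. Of its 680 exon bases, 70 (10.3%) lie in exons of *Itgad* on the opposite strand (chr7:128154376-128223816), the integrin alpha D gene of macrophages, and the table gives *Cox6a2* a locus that reaches across most of *Itgad*. The library kit keeps strand, but whether counting used it is not stated. *Itgad* was listed at 0 in all 8 chow mice and was at 0.877, 0.938, 2.08, 1.75 and 3.54 FPKM in 5 HFD mice and at 0 in the other 3, where *Cox6a2* was 25.0, 4.78 and 13.7 FPKM. The neighbouring macrophage gene *Itgax* was at most 0.741 FPKM on chow and between 8.51 and 47.4 FPKM on HFD. The 20 macrophage markers summed to 280 to 512 FPKM on chow and 1740 to 3318 FPKM on HFD. Among 6 listed skeletal muscle markers, *Mb*, *Myh1* and *Tnni2* were listed at 0 in every HFD mouse, *Acta1* ranged from 0 to 11.7 FPKM on chow and from 0 to 9.44 FPKM on HFD, and *Myl1* from 0 to 24.3 FPKM on chow and from 0 to 14.5 FPKM on HFD. *Pvalb*, like *Cox6a2*, was listed at 0 in every chow mouse. It reached 8.61 FPKM on HFD, where it was above 0 in 6 mice, and was called in the higher direction over both genotypes, again through HFD mice only. The 6 markers summed to 0 to 33.9 FPKM on chow and 0 to 27.5 FPKM on HFD. Whether fragments of *Itgad*, macrophage RNA or muscle RNA had a part in the *Cox6a2* values was not tested.

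Complex V makes ATP. Of its 12 tested members 11 were below 0, and none passed. *Atp5b* ranged from 218 to 515 FPKM on chow and from 168 to 310 FPKM on HFD (log2 fold change -0.52 ± 0.22, adjusted p = 0.196). *Atp5a1*, the alpha subunit, had -0.39 ± 0.22 (adjusted p = 0.355), and *Atp5k*, subunit e, which joins dimers of the enzyme, had -0.92 ± 0.45 (adjusted p = 0.286). The 5 genes of the catalytic F1 part lay between -0.55 and -0.39, and the 7 of the stalk and membrane part between -0.92 and 0.05. All 12 were below 0 in control mice (median -0.54) and 8 in ASKO mice (median -0.11).

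Several complex IV subunits have a ubiquitous and a tissue-restricted isoform. In most mice the ubiquitous forms carried the signal. *Cox4i1* was between 79.3 and 321 FPKM in the 16 mice, while *Cox4i2*, an oxygen-sensitive form, was above 0 in 3 mice and at most 7.76 FPKM. *Cox6a1* ranged from 18.9 to 116 FPKM (log2 fold change 0.33, adjusted p = 0.739), above the 0 to 25.0 FPKM of *Cox6a2* in every mouse. *Cox7a2* ranged from 0 to 41.3 FPKM, and *Cox7a1*, a form of muscle and brown fat, was above 0 in 3 mice and at most 15.5 FPKM. *Cox8a* was listed at 0 in 1 mouse and reached 214 FPKM, and *Cox8b*, the other form of muscle and brown fat, was above 0 in 5 mice, between 15.6 and 65.9 FPKM. *Cox7b* (-0.78, adjusted p = 0.352) had no second form listed, and *Cox6b2*, *Cox7b2* and *Cox8c* were not analysed here. Of the genes for subunit c of the ATP synthase, *Atp5g3* was between 42.6 and 150 FPKM, and *Atp5g1* was above 0 in 4 mice and reached 19.5 FPKM.

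Over both genotypes, lists of genes around the chain had medians nearer to 0 than the -0.50 of the members, though the tricarboxylic acid cycle list was close. In ASKO mice alone, the mitochondrial ribosomal protein genes had -0.31, against -0.34 for the members. The tricarboxylic acid cycle supplies the chain's NADH and succinate. Its list also holds genes of pyruvate dehydrogenase (*Pdha1*, *Pdhb*, *Dlat* and *Pdhx*), which is not a cycle enzyme. Of the 18 tested genes of this list, 16 were below 0 over both genotypes (median -0.45), against 49.5% of all tested genes. Of the 18, 1 passed the test, in the lower direction (background 3.04%). This was *Pdha1*, the E1 alpha subunit of pyruvate dehydrogenase, at 43.4 to 72.7 FPKM on chow and 22.6 to 42.5 FPKM on HFD (fell by 0.84 ± 0.19, adjusted p = 0.0118). The cycle's own enzymes had no call. Among 41 tested assembly factors the median was -0.19. Of these, 1 was called lower (background 3.04%) and 1 higher (background 4.49%), no more than the background shares. *Ttc19*, needed for complex III, fell by 0.98 ± 0.22 (adjusted p = 0.0107), and *Cox15*, needed for the heme A of complex IV, rose by 0.96 ± 0.23 (adjusted p = 0.0155) from 13.5 to 30.1 FPKM on chow to 31.7 to 87.4 FPKM on HFD. None of 15 tested genes for electron carriers and coenzyme Q synthesis passed (median -0.19). *Cyc1*, cytochrome c1 of complex III, whose name lacks the Uqcr prefix, had 0.01 ± 0.44, and *Cycs*, cytochrome c, had 0.50 ± 0.36 (adjusted p = 0.502). Also without a call were the 74 mitochondrial ribosomal protein genes (median -0.15) and, as another family of short and abundant messages, 64 cytosolic ribosomal protein genes (median 0.15).

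Regulators of mitochondrial biogenesis were near the detection limit. *Ppargc1a*, the coactivator PGC-1 alpha, was above 0 in 5 mice and at most 1.33 FPKM, *Ppargc1b* in 1 mouse, and neither was tested. *Gabpa* had a log2 fold change of 0.69 ± 0.34 (adjusted p = 0.286), *Nrf1* 0.51 ± 0.41 (adjusted p = 0.570), *Esrra* -0.12 ± 0.41 (adjusted p = 0.927) and *Tfam*, which maintains mitochondrial DNA, -0.56 ± 0.56 (adjusted p = 0.672). Among 7 tested thermogenic genes 1 was called in the higher direction, *Otop1* (background 4.49%). It was listed at 0 in all chow mice and at most 3.94 FPKM on HFD. *Otop1* entered the test only through HFD mice, so its call is not read as a rise. *Ucp1*, the uncoupling protein of brown fat, was above 0 in 1 mouse. The only mitochondrially encoded gene in the table, *mt-Nd6* of complex I, ranged from 51.6 to 131 FPKM on chow and from 9.74 to 118 FPKM on HFD.

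**Figure D4:**
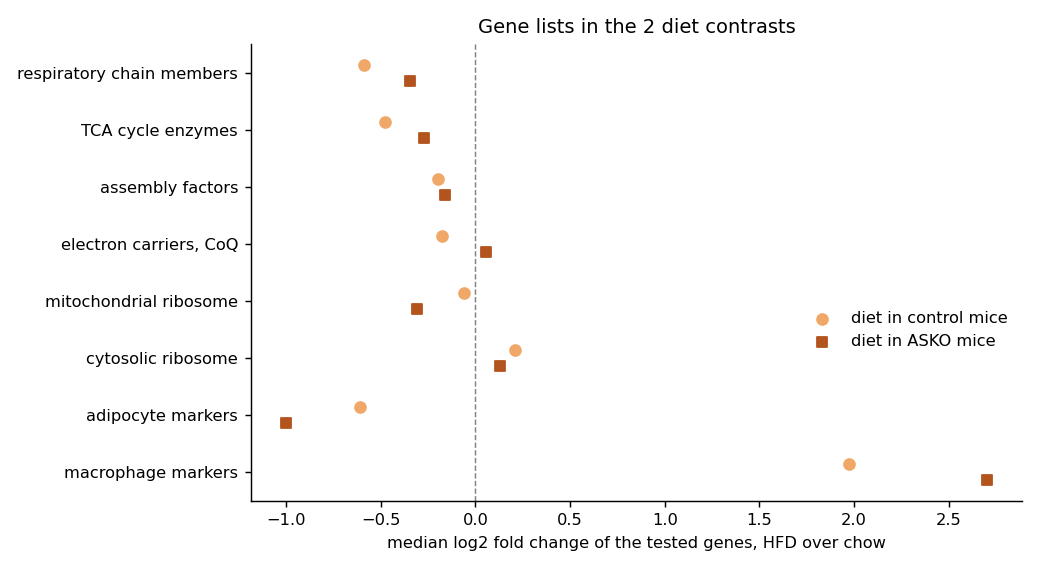
Median log2 fold change of HFD over chow (horizontal axis) over the tested genes of the respiratory chain and of 7 other lists, in control mice (circles) and ASKO mice (squares). Respiratory chain members, tricarboxylic acid (TCA) cycle enzymes, assembly factors and mitochondrial ribosomal proteins lie left of 0 in both genotypes. The TCA cycle list includes pyruvate dehydrogenase genes. Adipocyte markers lie further left in ASKO mice (-1.002 against -0.61 in control mice), and macrophage markers lie at 1.97 and 2.70.

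The effect of *Mboat7* deletion in adipocytes was compared on each diet, with the same mice as in the diet comparisons. No member passed the test, on chow (background 0.00761% of tested genes) or on HFD (background 0.00761%), by limma. The paper, with a Cufflinks analysis, reported macrophage genes such as *Itgax* as elevated in HFD-fed ASKO mice. *Itgax* did not pass here either (log2 fold change 1.34 ± 0.41 on HFD, adjusted p = 0.824), so the lack of calls is not particular to the members. On chow 50 of 76 members were above 0 in ASKO mice, with a median log2 fold change of 0.20 (all tested genes, 0.00), and 1 had an unadjusted p under 0.05 (background 4.8%). The chow median was 0.51 without the low ASKO mouse, 0.06 without the low control mouse, 0.35 without control replicate 1, 0.09 without ASKO replicate 1 and 0.13 without ASKO replicate 2. On HFD 52 of 76 were above 0, with a median of 0.25 (all tested genes, 0.02), and 4 had an unadjusted p under 0.05, each higher in ASKO mice (background 5.15%). The HFD median was 0.15 without ASKO replicate 1, 0.40 without control replicate 0 and 0.41 without ASKO replicate 2. Values from 4 mice against 4 overlapped for nearly all members, with 2 apart on chow (*Cox5b* and *Ndufv1*, background 2.19%) and 1 on HFD (*Uqcrc2*, background 3.38%).

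None of the members with the lowest genotype p-values was close to the threshold. On chow they were *Ndufv1* (log2 fold change 0.91 ± 0.33 in ASKO over control mice, adjusted p = 0.913), *Ndufb5*, an accessory subunit (0.99 ± 0.47, adjusted p = 0.983), and *Ndufs7*, the core subunit next to the ubiquinone site (1.46 ± 0.78, adjusted p = 0.983). On HFD they were *Ndufs7* (2.49 ± 0.78, adjusted p = 0.824), *Uqcrc2*, a core protein of complex III (1.04 ± 0.38, adjusted p = 0.876), and *Ndufc1*, a small accessory subunit (3.13 ± 1.16, adjusted p = 0.876). *Uqcrc2* on HFD was at 14.2, 24.1, 25.8 and 27.1 FPKM in control mice and 43.8, 43.9, 45.5 and 54.2 FPKM in ASKO mice, so the HFD groups were apart. Its exons overlap those of *Pdzd9* on the other strand. On chow its control values of 38.9 to 53.3 FPKM lay within the ASKO range of 18.2 to 90.1 FPKM. *Ndufs7* was listed at 0 in 3 control mice on HFD and at 6.40 FPKM in the fourth, against 4.56 to 17.0 FPKM in ASKO mice, values of a few fragments.

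**Figure D5:**
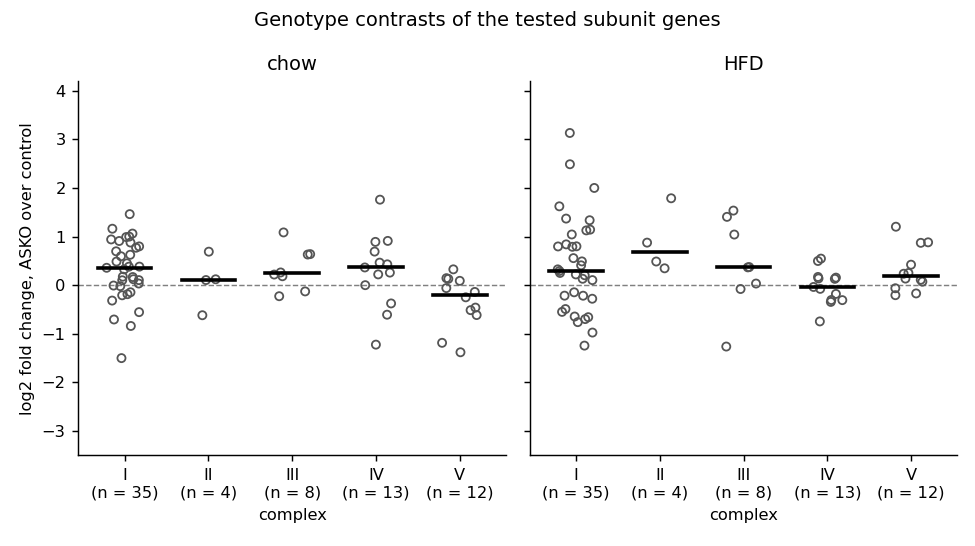
Log2 fold change of ASKO over control mice (vertical axis) of the 72 tested subunit genes by complex on chow and on HFD; each point is 1 gene and bars are medians. No point is filled because no gene passed the test, and medians run from -0.20 (complex V on chow) to 0.68 (complex II on HFD).

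The diet effect was not shown to differ between genotypes. No member passed for the genotype-by-diet interaction by limma (background 0%), and 1 had an unadjusted p under 0.05 (background 6.3%). The median interaction was 0.19 on the log2 scale (all tested genes, 0.04), and it was -0.02 without the 2 mice in which 1 gene took the largest share of FPKM. Complex IV had -0.54 and complex II 0.74. The lowest p-values were those of *Uqcrc2* (1.17 ± 0.54, adjusted p = 0.779), *Ndufc2* (-1.64 ± 0.80, adjusted p = 0.796) and *Ndufs4* (-2.04 ± 1.02, adjusted p = 0.796).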

How the data were processed

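RNA from gWAT of 16 mice was sequenced from directional mRNA libraries. The authors used TrimGalore for trimming, STAR for alignment to mm10 with GENCODE annotation, and Cufflinks for quantification. The deposited FPKM values, one for each gene in each mouse, were used as given, and Cuffdiff is also named in the submitters' processing notes. The GENCODE release and the use of strand in counting are not given in the sources used here. Depth is known only from steps between low values.

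Gene identifiers were matched to GENCODE M21 (99.6%, and all 82 members), which gave positions, lengths and overlaps. Copies were found with blastn 2.17.0. Tests used limma 3.58.1 in R 4.3.3 on log2(FPKM + 1), which understates changes of low genes, for genes that reached 1 FPKM in 4 or more mice, with the 4 groups in one fit, a trend on mean level and Benjamini-Hochberg adjustment over 13148 genes in each of 6 contrasts. The study's groups come from the sample labels, and mice of a group are separate animals. Every ± beside a fold change is the SE. The script was tested on simulated data. Genes there were drawn independently from normal distributions, so the simulation does not cover members that vary together.

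The members and lists were chosen with earlier results of these data known. Named were the most abundant member of each complex, the called or lowest-p members by contrast, members called against the direction of their complex, isoform families, *Mboat7*, list genes called for diet and a set of regulators, and other genes were named after their values were seen. Lists were described by counts and medians, without set tests. Alternatives were 3 other scalings, a filter of 5 FPKM or none, a pseudocount of 0.1, a GC and length correction, only the groups compared, no trend, robust estimation, array weights, calls by adjusted p alone, adjustment over 6 contrasts, a replicate block, and leaving out mice. Tables and plots used Python 3.11.15, pandas 2.3.3, numpy 2.4.6 and matplotlib 3.10.9.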

Additional observations from a re-analysis of the deposited data

Results flagged for a closer look

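In 29 of 175 groups of 4 mice, 1 mouse lay far from the other 3 by Dixon's criterion. The criterion's rate of 1 in 20 groups holds for normally distributed values, so it gives no expected count for these FPKM values. A group with a single mouse above 0 always meets the criterion. In 15 of the 29, the far mouse was the only one above 0. These were *Atp5g1* in control mice on chow (0.551 FPKM), *Atp5k-ps2* in ASKO mice on HFD (60.5 FPKM), *Atp5s* in control mice on chow (2.93 FPKM), *Atp5sl* in control mice on HFD (2.14 FPKM) and *Ndufa4l2* in control mice on HFD (3.73 FPKM). *Ndufs7* in control mice on HFD was at 6.40 FPKM in its single mouse. *Cox4i2* was above 0 in 1 control mouse on chow (5.52 FPKM), 1 control mouse on HFD (7.76 FPKM) and 1 ASKO mouse on HFD (6.67 FPKM). *Cox7a1* was above 0 in 1 ASKO mouse on chow (15.5 FPKM), 1 control mouse on HFD (10.5 FPKM) and 1 ASKO mouse on HFD (11.4 FPKM). *Cox8b* was above 0 in 1 control mouse on chow (15.6 FPKM), 1 control mouse on HFD (65.9 FPKM) and 1 ASKO mouse on HFD (27.7 FPKM).

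Replicate 0 of the control mice on HFD, whose members had the highest mean of its group, was the high one for *Cox6c* (35.9 FPKM, the others 10.4 to 12.7) and *Uqcr10* (327 FPKM, the others 164 to 169), and it was the single mouse above 0 for *Atp5sl*, *Cox7a1*, *Cox8b*, *Ndufa4l2* and *Ndufs7*. In ASKO mice on HFD, replicate 2 was high for *Ndufa5* (152 FPKM, the others 68.3 to 81.5) and *Atp5sl* (3.87 FPKM, the others 1.09 to 1.20), and low for *Uqcr10* (164 FPKM, the others 288 to 305) and *Uqcrh* (76.7 FPKM, the others 170.3 to 177). In the same group *Atp5a1* was high in replicate 1 (118 FPKM), *Uqcrc2* in replicate 0 (54.2 FPKM), and *Sdhb* was low in replicate 3 (9.77 FPKM, the others 12.3 to 12.5). Among control mice, replicate 1 was high on chow for *Cox6a1* (111 FPKM, the others 18.9 to 30.8) and *Uqcrq* (94.3 FPKM), and on HFD for *Ndufc1* (32.7 FPKM). In ASKO mice on chow, *Ndufa4* was at 594 FPKM in replicate 2 (the others 141 to 207), and the mean of the complex III members was 5.50 on the log2(FPKM + 1) scale in replicate 0, the lowest, where the others were between 6.15 and 6.27.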

How the results depend on the processing

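Over both genotypes, the 5 members lower on HFD became 3 with no filter on low values or with upper-quartile scaling, 2 with quantile normalization and 1 with adjustment over 6 contrasts, and 2 without the 2 mice whose FPKM was most concentrated in 1 gene, an alternative chosen after seeing the data; the cause was not tested. Leaving out 1 mouse gave 1 to 7 lower members, with 1 without control or ASKO replicate 1 on chow and 2 or 3 without control replicate 2 or 3 or ASKO replicate 2 or 3 on chow, control replicate 1 or 3 on HFD, or ASKO replicate 0, 1 or 2 on HFD. A filter of 5 FPKM gave 1 lower member in ASKO mice in place of 0, and leaving out 1 mouse gave 0 to 1 in ASKO mice (1 without ASKO replicate 0 on chow or replicate 2 on HFD) and 0 to 1 in control mice (1 without ASKO replicate 2 on HFD). *Ndufb8* passed in all 14 alternatives and with each of 16 mice left out. Of the 14 alternatives, *Sdha* missed the threshold in 5, *Ndufv1* in 5, *Ndufv2* in 3 and *Ndufa10* in 6, and of the 16 left-out mice in 7, 11, 10 and 11. All diet medians of the members stayed below 0 and all genotype medians above 0. The ASKO diet median was closest to 0, at -0.19, when values were divided by a sum without the 10 highest genes, which moved the median of all tested genes to 0.17 in that contrast, 0.13 for genotype on HFD and 0.25 for the interaction. Among the counts, medians and genes compared in this way, none reversed. The median interaction, which was not among them, went from 0.19 to -0.02 without the 2 mice named above.

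Replicate numbers did not pair the mice: correlations of deviations between same-numbered mice ran from -0.19 to 0.15 (median 0.01, 24 pairs). With the replicate number as a block, 4 members were lower over both genotypes.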
